A study of Mus musculus with 7 samples.

Results

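Heat shock proteins and their co-chaperones were followed in resident peritoneal macrophages of the mouse. Every protein-coding gene whose symbol begins with Hspa, Hspb, Hspd1, Hspe1, Hsph1, Hsp90, Dnaja, Dnajb or Dnajc, or is Bag1 to Bag6, Hsf1 or Hsf2, was taken as a member, which gave 83 of the 57010 genes in the count table. The symbol alone made the choice, so the set also holds genes that share a symbol stem but no chaperone fold, such as Hspb11, Hspbp1 and Hspbap1. RNA came from C57BL/6 mice in 2 groups: 3 libraries of steady state controls and 4 libraries taken at day 12 from mice given an injection labelled m204 MTO. What MTO stands for is not spelled out, and the series title places the study in peritoneal colorectal cancer. All 7 libraries came from CD11b, MHC class II and Tim4 stained, viable peritoneal fluid cells sorted for Tim4, so the gate is common to both groups. Age and sex of the animals and any pooling are not stated in the sources at hand, and beyond the word biological nothing ties a replicate to a separate animal, so p-values measure the spread between these samples.

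Chaperones of these families bind unfolded stretches of other proteins and release them in cycles driven by ATP. HSP70 proteins take their clients from J-domain proteins (the HSP40 or DNAJ families), nucleotide exchange factors such as the BAG and HSP110 proteins reset them, and HSP90 finishes many kinases and steroid receptors. Some copies are always present (Hspa8, Hsp90ab1), others are the classic targets of heat shock factor 1 (Hspa1a, Hspa1b, Hspb1), and separate copies serve the endoplasmic reticulum (Hspa5, Hsp90b1) and the mitochondrion (Hspa9, Hspd1, Hspe1). In macrophages the inducible copies respond to heat, oxidants and protein damage, while the endoplasmic reticulum copies follow the load of secreted and membrane proteins.

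Promoters of members on which the results turn are shown first. The 3 linked HSP70 genes that fell most differ in whether the 250 bases before their start hold a 2-unit heat shock element. Heat shock elements are the sequences that heat shock factors bind. Sequences are from RefSeq, build GRCm38.p6, and end at the base before the annotated start. They cover chr17:34972157-34972406 (minus strand) for Hspa1a, chr17:34959239-34959488 (minus strand) for Hspa1b, chr17:34972453-34972702 (plus strand) for Hspa1l, chr5:135887669-135887918 (plus strand) for Hspb1, chr1:55088028-55088147 (plus strand) for Hspe1 and chr2:34771840-34772089 (plus strand) for Hspa5. Hspe1 is cut to the 120 bases nearest its start, since Hspd1 is transcribed the other way from the same stretch. Capitals mark a match: the 2-unit heat shock element (GAANNTTC or TTCNNGAA, N being any base) in Hspa1a, Hspa1b and Hspb1, a pair of overlapping 3-unit elements (GAANNTTCNNGAA or TTCNNGAANNTTC) in Hspe1, and the endoplasmic reticulum stress response element (CCAAT, 9 free bases, CCACG, on either strand) in Hspa5. Hspa1l is shown as the neighbour with no match.
Hspa1a: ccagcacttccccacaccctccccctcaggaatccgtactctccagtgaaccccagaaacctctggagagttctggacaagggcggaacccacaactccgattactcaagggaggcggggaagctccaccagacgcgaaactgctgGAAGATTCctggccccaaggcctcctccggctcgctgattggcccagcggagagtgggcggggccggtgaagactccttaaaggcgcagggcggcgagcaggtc
Hspa1b: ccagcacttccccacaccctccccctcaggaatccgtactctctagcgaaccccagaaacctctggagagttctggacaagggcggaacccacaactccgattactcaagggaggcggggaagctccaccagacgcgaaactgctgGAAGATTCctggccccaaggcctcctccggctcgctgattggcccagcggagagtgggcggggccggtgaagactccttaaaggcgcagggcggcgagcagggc
Hspa1l: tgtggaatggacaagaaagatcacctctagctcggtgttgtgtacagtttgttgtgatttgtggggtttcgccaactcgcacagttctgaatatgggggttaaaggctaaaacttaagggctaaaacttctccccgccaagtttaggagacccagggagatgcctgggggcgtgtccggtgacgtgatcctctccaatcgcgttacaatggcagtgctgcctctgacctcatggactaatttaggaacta
Hspb1: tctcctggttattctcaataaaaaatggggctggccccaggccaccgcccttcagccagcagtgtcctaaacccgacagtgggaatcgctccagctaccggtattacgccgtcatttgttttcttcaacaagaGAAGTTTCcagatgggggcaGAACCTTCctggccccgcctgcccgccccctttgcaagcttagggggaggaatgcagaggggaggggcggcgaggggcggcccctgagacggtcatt
Hspe1: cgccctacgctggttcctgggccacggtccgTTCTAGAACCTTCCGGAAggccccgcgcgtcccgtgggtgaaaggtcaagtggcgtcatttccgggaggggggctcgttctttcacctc
Hspa5: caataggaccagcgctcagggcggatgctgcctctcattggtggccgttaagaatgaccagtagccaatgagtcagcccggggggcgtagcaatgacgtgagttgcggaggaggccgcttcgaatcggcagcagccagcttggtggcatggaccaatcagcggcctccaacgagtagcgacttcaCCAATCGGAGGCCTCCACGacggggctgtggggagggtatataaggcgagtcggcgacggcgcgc

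The windows of Hspa1a and Hspa1b were identical at 247 of 250 bases (98.8%), and both held GAAGATTC from 104 to 97 bases before the start. Hspb1 held 2 such matches, from 117 to 110 and from 97 to 90 bases before its start. The ER element of Hspa5 lay from 65 to 47 bases before its start. The same element stood at 105 to 87 bases before the start of Dnajc3 (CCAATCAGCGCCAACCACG), and Hsp90b1 held it on both strands, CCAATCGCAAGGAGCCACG from 212 to 194 and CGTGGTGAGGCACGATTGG from 107 to 89 bases before its start. Windows from 250 bases before to 50 bases after a start were searched on both strands, and 66 of the 83 members had 1 or more such windows, 84 in all. A 3-unit heat shock element was found in 0.603% of all 32851 windows and in 6 of the 84 member windows. These belong to 4 members (Dnajb6, Hspd1, Hspe1 and Hsph1), where Hspd1 and Hspe1 share the same DNA. The 2-unit form, which every 3-unit element contains, was found in 15.1% of all windows and in 19 of the 84 member windows, those of 17 members. The ER element was found in 0.119% of all windows and in 3 of the 84 member windows, those of Hspa5, Hsp90b1 and Dnajc3. These matches describe letters and not binding.

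Total counts per library ran from 32077050 to 38586694. Gene positions are those of the count table, on GRCm39. Values are CPM, counts scaled to library size, with edgeR's TMM factors, and 3 counts correspond to 0.0777 to 0.0935 CPM. The log2 change is the ratio on the log2 scale of day 12 over steady state with its standard error (SE) from edgeR's quasi-likelihood fit, and a gene was called at a Benjamini-Hochberg adjusted p under 0.05 over the 15981 genes tested. All 12 markers of resident peritoneal macrophages were detected, with summed levels of 21792 to 23576 CPM in the controls and 24309 to 24799 CPM at day 12. That sum hides members that moved both ways: 4 of the 12 were called higher (Adgre1, Gata6, Cd5l and Itgam) and 2 lower by edgeR. Adgre1, which encodes F4/80, rose from 2573 ± 167 to 4734 ± 563 CPM (edgeR adjusted p = 0.00239). Timd4, which encodes the sort marker Tim4, fell from 963 ± 80.5 to 495 ± 114 CPM (edgeR adjusted p = 0.00484), and the growth factor receptor gene Csf1r fell from 2025 ± 186 to 1505 ± 95.7 CPM (edgeR adjusted p = 0.0304). Of 6 general macrophage markers, Mertk was called higher, and Csf1r and Lyz2 lower. Lyz2, a lysozyme gene with the close copy Lyz1, fell from 42101 ± 818 to 4624 ± 3767 CPM (edgeR adjusted p = 0.00523). Markers of some other cell types were also measured. B-cell markers summed to 6.61 to 10.5 CPM in the controls and 21.2 to 47.4 CPM at day 12. Of these, 5 of 8 were called higher, beside 10.1% of all genes tested. Dendritic-cell markers summed to 29.6 to 54.7 and 65.0 to 379 CPM with Siglech at 0. Epithelial markers summed to 0.112 to 0.356 and 1.99 to 3.05 CPM (Cdh1 called higher, Cdx2 and Krt20 at 0), and neutrophil markers to 1.01 to 1.41 and 1.72 to 3.40 CPM (Ly6g and Mpo at 0). Their part in the members' values was not tested. In bulk RNA, fewer cells of a type and less RNA per cell cannot be told apart. Day 12 replicate 4 stood apart: it was the lowest of the 4 day 12 libraries for 39 of the 70 members tested (55.7%) against 34.6% of all genes tested. That library was also the highest of the 4 for 15.7% of members and 34.8% of all genes tested. Mitochondrial transcripts, read as a sign of RNA quality, summed to 6988 CPM in replicate 4, to 13101 to 14502 CPM in the other day 12 libraries and to 9411 to 10297 CPM in the controls. Replicates 1 to 3 of day 12 thus lay above every control and replicate 4 below every control, and the part of this measure in the members' values was not tested.

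Heat shock genes moved in both directions. Of the 70 members with enough reads to test, 6 rose (Hspa2, Hspa9, Dnajb6, Dnajb13, Dnajc8 and Bag1) and 8 fell (Hspa1a, Hspa1b, Hspa1l, Hsp90ab1, Hspb1, Hspb11, Dnajb14 and Bag2). These 14 of 70 stand beside 20.3% of all genes tested (10.1% higher and 10.2% lower), so the share called was close to the background. At a change of at least 2-fold, 5 of the 70 were called, beside 10.1% of all genes tested. The counts moved with single libraries: without day 12 replicate 4, 14 members were higher and 13 lower (38.6% of members, 29.2% of all genes tested), and without any 1 of the controls 1 was higher and 5 were lower (8.57% of members, 10.7% to 11.3% of all genes). Called under every one of the 13 alternative settings run were 5 members (Hspa1b, Hspa1l, Hspb1, Dnajb13 and Dnajb14). Of these, Hspa1b and Hspb1 held a 2-unit element, a form found in 15.1% of all windows and in 17 of the 66 members with a window. No match of either form was recorded for Hspa1l, Dnajb13 and Dnajb14, and 17 of the 83 members had no window to search. The median member log2 change was 0.02 (0.003 over all genes tested), with 36 members above 0 and 34 below, over a range from -2.09 to 2.03. Summed over the 83 members, the level was 8156 ± 418 CPM in steady state (SD, n = 3) and 8001 ± 964 CPM at day 12 (SD, n = 4). Groups did not overlap for 29 of the 70 members (13 with day 12 above, 16 below), a share of 41.4%, beside 35% of all genes tested (16.5% above, 18.5% below). Another 11 members (among them Hspe1, Hspa8, Hspb6, Bag3, Dnajb5, Dnajb12, Dnajc15, Dnajc16, Dnajc18 and Dnajc24) had edgeR adjusted p between 0.05 and 0.10. The 13 members not tested (Dnajb3, Dnajb7, Dnajb8, Dnajc22, Dnajc5b, Dnajc5g, Dnajc6, Hspa12b, Hspb2, Hspb3, Hspb7, Hspb8 and Hspb9) all stayed under 0.21 CPM in every library, and 6 of them had no read in any library.

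**Figure D1:**
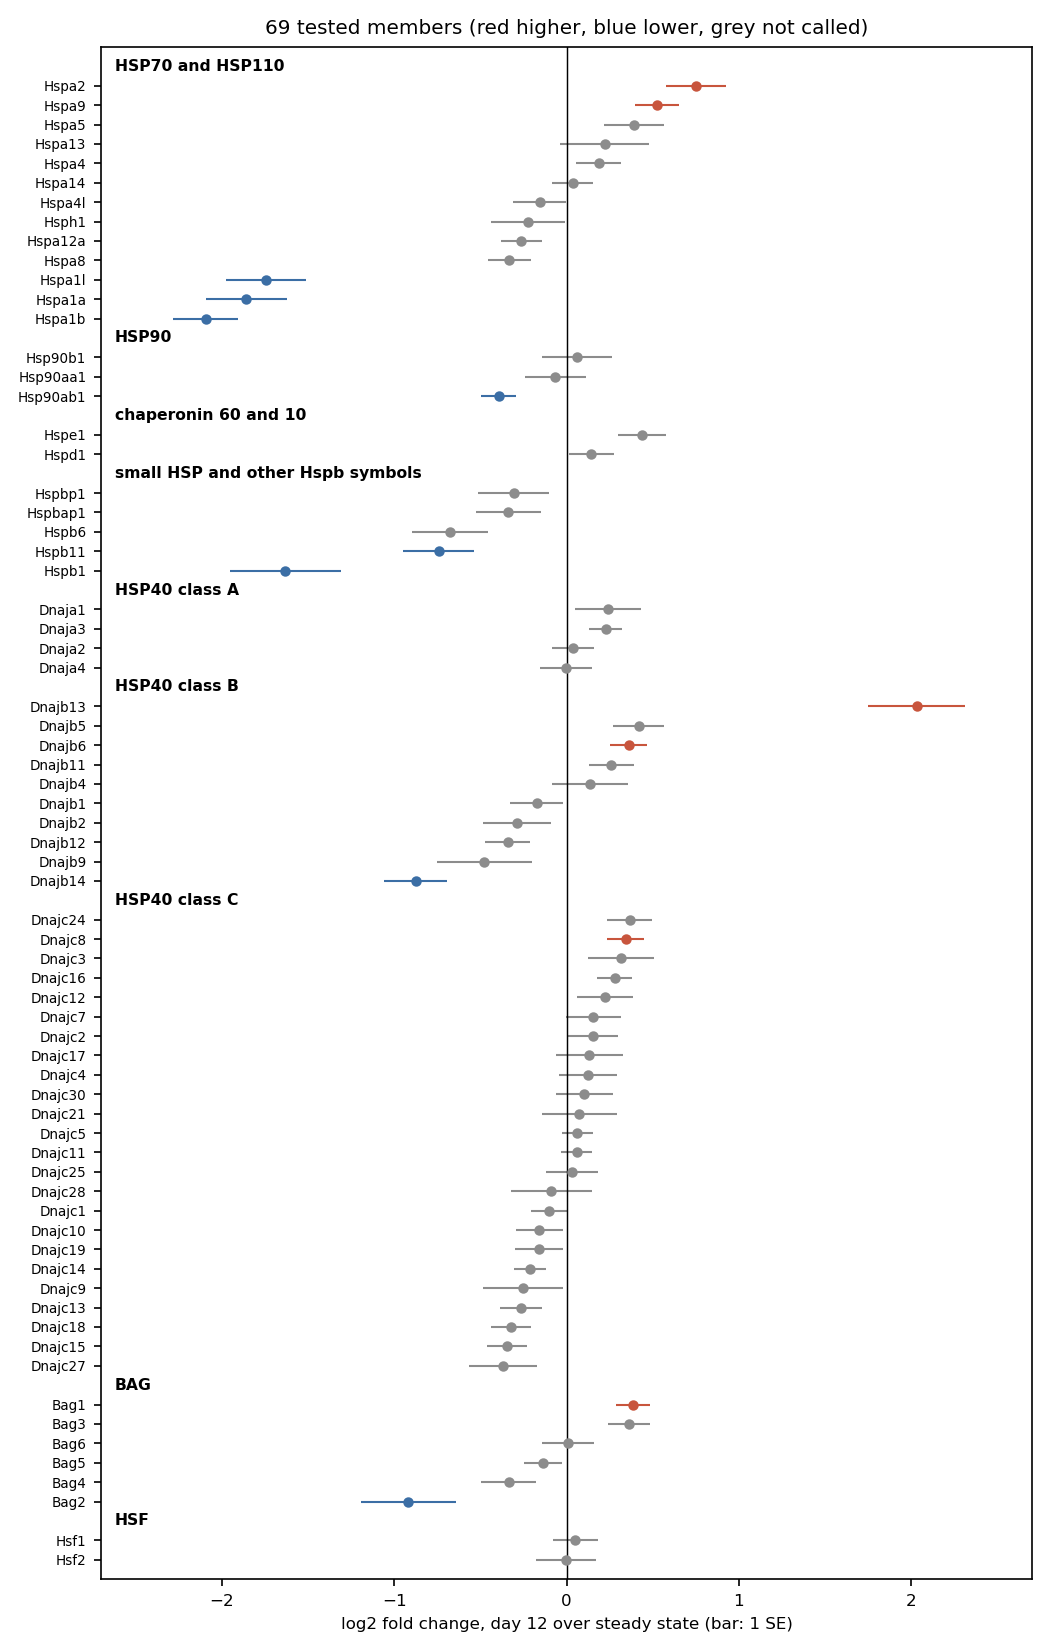
Log2 fold change of day 12 over steady state (x axis, bars 1 SE) for 69 of the 70 members tested, grouped by role, with genes called higher in red, lower in blue and not called in grey. Points on either side of 0 occur in most roles, and the ends of the range are Dnajb13 at 2.03 and Hspa1b at -2.09.

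The deepest falls were in the inducible HSP70 genes. Hspa1b (ENSMUSG00000090877, chromosome 17, 35175412 to 35178214 on GRCm39), an intronless heat-inducible cytosolic HSP70, stood at 172, 243 and 189 CPM in steady state and at 47.1, 33.7, 50.7 and 57.2 CPM at day 12. Its near-identical neighbour Hspa1a (ENSMUSG00000091971, 35188166 to 35191132) stood at 62.6, 106 and 78.3 CPM and then at 23.2, 14.7, 28.3 and 24.5 CPM. For both genes every day 12 library lay far below every control, with replicate 2 the lowest of day 12 and the highest of steady state. Hspa1b fell from 201 ± 37.2 to 47.2 ± 9.94 CPM (log2 change -2.09, SE 0.19, edgeR adjusted p = 0.000163). Hspa1a fell from 82.3 ± 22.0 to 22.7 ± 5.74 CPM (log2 change -1.86, SE 0.23, edgeR adjusted p = 0.000867). The 2 copies cannot be fully separated: their longest reading frames were identical at 1918 of 1929 aligned positions (99.4%), and 47.1% of the 100-base windows of the Hspa1a transcript recur in Hspa1b. How reads fitting both copies were counted is not stated in the sources at hand. Taken as a single row, a choice made after the data were seen, Hspa1a plus Hspa1b stood at 234, 349 and 267 CPM against 70.3, 48.4, 79.1 and 81.7 CPM, which is 4.02-fold lower at day 12 (log2 change -2.01, SE 0.20, edgeR adjusted p = 0.000268). Hspa1b exceeded Hspa1a in every library, by a CPM ratio of 2.48 ± 0.234 in steady state and 2.11 ± 0.252 at day 12.

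Hspa1l (ENSMUSG00000007033, 35191679 to 35198261), a testis-enriched HSP70 that lies head to head with Hspa1a, was scarcer and fell as well. It stood at 10.4, 14.2 and 11.2 CPM in steady state and at 3.37, 2.34, 3.95 and 4.64 CPM at day 12. The groups did not overlap (12.0 ± 2.01 to 3.57 ± 0.976 CPM, log2 change -1.74, SE 0.23, edgeR adjusted p = 0.00110). Hspa1l was less alike in sequence, with 82.9% identity to Hspa1a in the longest reading frame. Of its 100-base windows, 5.6% recur in the Hspa1a transcript and 3.8% in that of Hspa1b, both far more abundant. How reads fitting Hspa1l and a neighbour were counted is not stated in the sources at hand. The part of such reads in the level and fall of Hspa1l was not tested. The CPM ratio of Hspa1l to Hspa1b was 0.0595 ± 0.00104 in steady state and 0.0750 ± 0.00545 at day 12. A long non-coding gene, Gm20481, lies over 2225 bases of Hspa1a on the other strand and stood at a mean of 2.35 CPM in the controls and 0.631 CPM at day 12, while Gm10501, over Hspa1l, stood at 1.62 and 2.04 CPM. The library kit keeps strand, but whether the counting used it is not stated in the sources at hand, so these levels are uncertain. Immediate early genes, which rise when cells are handled, were measured beside them: 10 of 12 were called higher, beside 10.1% of all genes tested, with sums of 932 to 1154 CPM in the controls and 1729 to 2022 CPM at day 12. Among them Fos stood at 48.6 ± 17.7 and 251 ± 44.5 CPM. Their part in the HSP70 values was not tested.

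**Figure D2:**
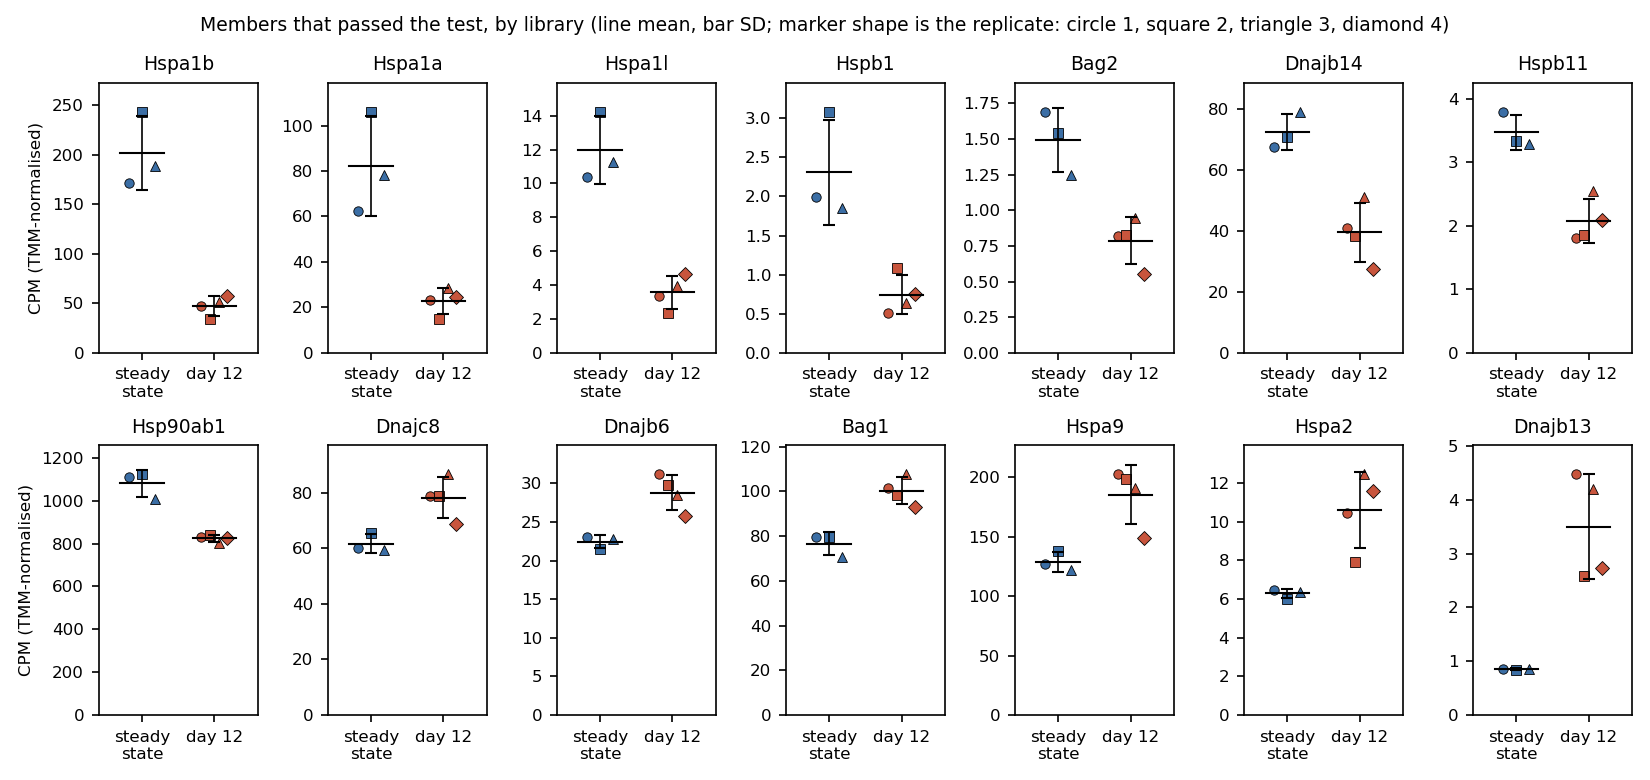
TMM-scaled CPM of the 14 called members in each library, 3 of steady state and 4 of day 12, with the group mean as a line and the SD as a bar, each gene on its own linear axis from 0 and each replicate with its own marker. Points of the groups do not overlap for any of the 14 genes, and Hspa1b shows the deepest drop, from 201 to 47.2 CPM.

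Other HSP70 genes went up or showed no change past the threshold. Hspa9 (mortalin, the mitochondrial HSP70 that pulls imported proteins into the matrix, chromosome 18, 35070467 to 35087410) stood at 127, 138 and 122 CPM and rose to 202, 198, 191 and 149 CPM (log2 change 0.52, SE 0.13, edgeR adjusted p = 0.0195). Hspa2, best known from sperm formation (ENSMUSG00000059970, chromosome 12, 76450950 to 76453712), stood at 6.49, 6.02 and 6.39 CPM and rose to 10.5, 7.94, 12.5 and 11.6 CPM (log2 change 0.75, SE 0.18, edgeR adjusted p = 0.0154). For both, every day 12 library was above every control, and neither passed the threshold when any single control library was left out (edgeR adjusted p up to 0.0986 for Hspa9 and up to 0.0732 for Hspa2). Hspa8, the constitutive cytosolic HSP70, stood at 1094, 1036 and 941 CPM in steady state and at 909, 698, 828 and 817 CPM at day 12. Its groups did not overlap, but it missed the threshold (log2 change -0.33, SE 0.12, edgeR adjusted p = 0.0897) and passed it with DESeq2 (adjusted p = 0.0480). Hspa14, a partner of the ribosome-bound J protein Dnajc2, was level at 28.8, 23.8 and 23.8 CPM against 26.1, 28.2, 27.0 and 23.2 CPM (log2 change 0.04, SE 0.12), and Hspa12a, an atypical member of the family, stood at 159 ± 11.2 and 133 ± 15.7 CPM.

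The HSP110 genes, which reset HSP70 by exchanging its nucleotide, held overlapping values in both groups. Hspa4 stood at 177, 167 and 169 CPM and then at 213, 212, 199 and 154 CPM (log2 change 0.19, SE 0.13, edgeR adjusted p = 0.349). Hsph1 stood at 80.1, 70.6 and 70.5 CPM and then at 83.7, 49.3, 75.8 and 43.9 CPM (log2 change -0.22, SE 0.22, edgeR adjusted p = 0.513). Day 12 replicate 4 was the lowest day 12 library in both genes, and for Hsph1 replicate 2 (49.3 CPM) was low as well. Without replicate 4 Hspa4 passed the threshold as higher (log2 change 0.28, edgeR adjusted p = 0.0152), and Hsph1 did not pass (0.781). Hspa4l stood at 58.4 ± 4.09 CPM in the controls and 52.4 ± 9.99 CPM at day 12.

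Of the 3 HSP90 genes only the constitutive cytosolic copy was called, beside 20.3% of all genes tested. Hsp90ab1 (ENSMUSG00000023944, chromosome 17, 45878701 to 45884197) stood at 1112, 1124 and 1009 CPM in steady state and at 829, 839, 802 and 828 CPM at day 12. The day 12 libraries lay close together below all controls, and Hsp90ab1 fell by 0.39 on the log2 scale (SE 0.10, edgeR adjusted p = 0.0243). That call was lost when any library other than day 12 replicate 4 was left out (edgeR adjusted p from 0.0525 to 0.136), with the log2 change between -0.45 and -0.35. The inducible copy Hsp90aa1 stood at 123, 116 and 95.1 CPM and then at 123, 118, 111 and 73.9 CPM (log2 change -0.07, SE 0.18), and its sign turned without day 12 replicate 4 (0.08). Hsp90b1, the endoplasmic reticulum HSP90 also known as GRP94, stood at 926, 1237 and 1025 CPM and then at 1279, 1125, 1302 and 735 CPM (log2 change 0.06, SE 0.20, edgeR adjusted p = 0.860).

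Small heat shock proteins hold unfolded proteins without ATP. Of those with an Hspb symbol, Hspb1 and Hspb6 alone had enough reads to test, and Hspb1 fell. Cryab, a small heat shock protein gene outside the symbol rule, was scarce and called higher by edgeR. Its means were 0.131 CPM in the controls and 0.597 CPM at day 12. Of 10 members whose symbol begins with Hspb, 5 had enough reads and 2 were called lower by edgeR, beside 10.2% of all genes tested. None was called higher (none at an unadjusted p under 0.05 or by DESeq2 either), beside 10.1% of all genes tested. All 5 log2 changes were below 0 (median -0.68). The other three tested, Hspb11, Hspbp1 and Hspbap1, share the stem and are not small heat shock proteins. Hspb1, known as HSP25 in mice (ENSMUSG00000004951, chromosome 5, 135916773 to 135918417), stood at 1.99, 3.08 and 1.85 CPM in steady state and at 0.503, 1.08, 0.631 and 0.755 CPM at day 12. The groups did not overlap, and Hspb1 fell by 1.63 on the log2 scale (SE 0.32, edgeR adjusted p = 0.00751). Hspb11, a subunit of the intraflagellar transport complex (chromosome 4, 107110790 to 107137135), stood at 3.80, 3.33 and 3.29 CPM and fell to 1.80, 1.86, 2.55 and 2.09 CPM (log2 change -0.74, SE 0.21, edgeR adjusted p = 0.0319). The Hspb11 call was lost when any control (edgeR adjusted p from 0.0891 to 0.153) or day 12 replicate 1 or 2 (0.0859 and 0.0716) was left out. Hspb6, another small heat shock protein, stood at 3.18 ± 0.336 and 1.99 ± 0.349 CPM and missed the threshold (log2 change -0.68, edgeR adjusted p = 0.0568), though it passed as lower with DESeq2, with limma-voom and without day 12 replicate 4 (adjusted p = 0.0316, 0.0490 and 0.0475). Hspbap1 and Hspbp1, which bind HSPB1 and HSP70, had log2 changes of -0.34 and -0.30 with overlapping groups.

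The mitochondrial chaperonin pair, which folds imported matrix proteins in a closed chamber of which Hspd1 forms the walls and Hspe1 the lid, was not called by edgeR, with Hspe1 at an unadjusted p of 0.0117. Hspd1 (HSP60) stood at 85.5, 88.7 and 74.8 CPM and then at 101, 103, 86.6 and 76.7 CPM (log2 change 0.14, SE 0.13, edgeR adjusted p = 0.472). Hspe1 (HSP10) stood at 17.0, 16.8 and 12.6 CPM and then at 21.9, 21.9, 18.2 and 21.8 CPM, with all day 12 libraries above the controls (log2 change 0.44, SE 0.14, edgeR adjusted p = 0.0548). Hspe1 passed the threshold as higher with DESeq2 size factors in edgeR (adjusted p = 0.0462), with DESeq2 (0.0206), with a filter of 1 CPM in 3 libraries (0.0402) and without day 12 replicate 3 (0.0452). Over the 9 mitochondrial members tested, Hspa9 was the 1 called, beside 20.3% of all genes tested, and the median log2 change was 0.10.

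Among J-domain proteins, which bring clients to HSP70 and trigger its ATPase, 4 of 38 tested were called (10.5%, beside 20.3% of all genes tested). Dnajb13, a radial spoke protein of cilia and sperm tails (ENSMUSG00000030708, chromosome 7, 100150923 to 100164167), stood at 0.860, 0.840 and 0.862 CPM in steady state and at 4.48, 2.59, 4.21 and 2.73 CPM at day 12. It was the strongest rise of the 70 members tested (log2 change 2.03, SE 0.28, edgeR adjusted p = 0.00132). Dnajb13 overlaps 305 bases of Ucp2 on the other strand, and Ucp2 stood at a mean of 1159 CPM in the controls and 854 CPM at day 12, so a share of reads from Ucp2 cannot be told apart if strand was not used in counting. Marker sums of B cells and dendritic cells, given above, were also higher at day 12, and their part in the level of this scarce transcript was not tested. Dnajb14, a J protein of the endoplasmic reticulum membrane (ENSMUSG00000074212, chromosome 3, 137573436 to 137622318), stood at 67.6, 70.7 and 79.0 CPM and fell to 41.0, 38.2, 51.2 and 27.6 CPM (log2 change -0.88, SE 0.18, edgeR adjusted p = 0.00892). Its groups were well apart, with replicate 4 the lowest at day 12. Dnajb6, a suppressor of protein aggregation (chromosome 5, 29940686 to 30023132), stood at 23.0, 21.5 and 22.8 CPM and rose to 31.2, 29.7, 28.4 and 25.8 CPM (log2 change 0.36, SE 0.11, edgeR adjusted p = 0.0398). Dnajc8, a spliceosome-associated protein (chromosome 4, 132262861 to 132281053), stood at 60.1, 65.6 and 59.2 CPM and rose to 78.9, 78.7, 86.7 and 68.8 CPM (log2 change 0.34, SE 0.11, edgeR adjusted p = 0.0494). Both lay fully above the controls, and both calls were lost when any control library was left out (edgeR adjusted p up to 0.162 for Dnajb6 and up to 0.188 for Dnajc8). The Dnajb6 call was also lost without day 12 replicate 1 or 3, and that of Dnajc8 without day 12 replicate 1, 2 or 3.

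The J proteins that serve cytosolic HSP70 in the heat shock response, Dnajb1 and Dnaja1, were not called. Dnajb1 (HSP40) stood at 48.0, 39.5 and 38.8 CPM and then at 37.7, 30.2, 46.5 and 34.9 CPM (log2 change -0.17, SE 0.15). Dnaja1 stood at 113, 88.0 and 87.2 CPM and then at 137, 103, 134 and 81.1 CPM (log2 change 0.24, SE 0.19, edgeR adjusted p = 0.419). Their groups overlapped. None of the 4 Dnaja genes was called by edgeR or DESeq2 (1 at an unadjusted p under 0.05, median log2 change 0.13). Without day 12 replicate 4 Dnaja3 passed as higher (edgeR adjusted p = 0.0455). The 24 Dnajc genes tested spanned -0.37 (Dnajc27) to 0.37 (Dnajc24) with a median of 0.06. Several J-protein genes overlap well-expressed genes on the other strand, among them Dnaja3 with Coro7, Dnajc7 with Cnp, Dnajc19 with Fxr1 and Dnajc1 with Mllt10, and their values are uncertain in the same way as Dnajb13.

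In the endoplasmic reticulum the members parted by gene, with 1 of 11 called (Dnajb14, lower), beside 20.3% of all genes tested. Their median log2 change was 0.03. Hspa5 (BiP, the reticulum's HSP70) stood at 1103, 1441 and 1234 CPM in steady state and at 1938, 1545, 1858 and 1261 CPM at day 12. Dnajc3 (p58IPK, a BiP partner) stood at 269.5, 299 and 296 CPM and then at 448, 337, 407 and 242 CPM. In both genes day 12 replicates 1 to 3 exceeded every control and replicate 4 did not. With all 7 libraries Hspa5 had a log2 change of 0.39 (SE 0.17, edgeR adjusted p = 0.145) and Dnajc3 of 0.32 (SE 0.19, edgeR adjusted p = 0.284). Without day 12 replicate 4 these were 0.50 (edgeR adjusted p = 0.0207) and 0.47 (edgeR adjusted p = 0.0168), and both then passed, while leaving out any other library passed neither. Calls without day 12 replicate 4 covered 38.6% of members and 29.2% of all genes tested. With that library left out and the replicate number as a block, Hspa5 missed the threshold (edgeR adjusted p = 0.0545) and Dnajc3 passed (0.0350). Hspa13, a reticulum HSP70 singled out after its values were seen, showed the same order, at 51.3, 49.3 and 53.1 CPM and then 75.2, 62.1, 70.3 and 31.2 CPM, with edgeR adjusted p = 0.592 with all libraries and 0.00740 without replicate 4. Dnajb9 (ERdj4), another BiP partner, stood at 166, 162 and 173 CPM and then at 145, 126, 150.3 and 58.8 CPM, with all day 12 libraries below the controls (log2 change -0.48, SE 0.27, edgeR adjusted p = 0.261). The CPM ratio of Hspa5 to Hsp90b1 was 1.19, 1.16 and 1.20 in steady state and 1.52, 1.37, 1.43 and 1.72 at day 12, higher in all 4 day 12 libraries, replicate 4 included. This ratio was chosen after the values were seen.

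**Figure D3:**
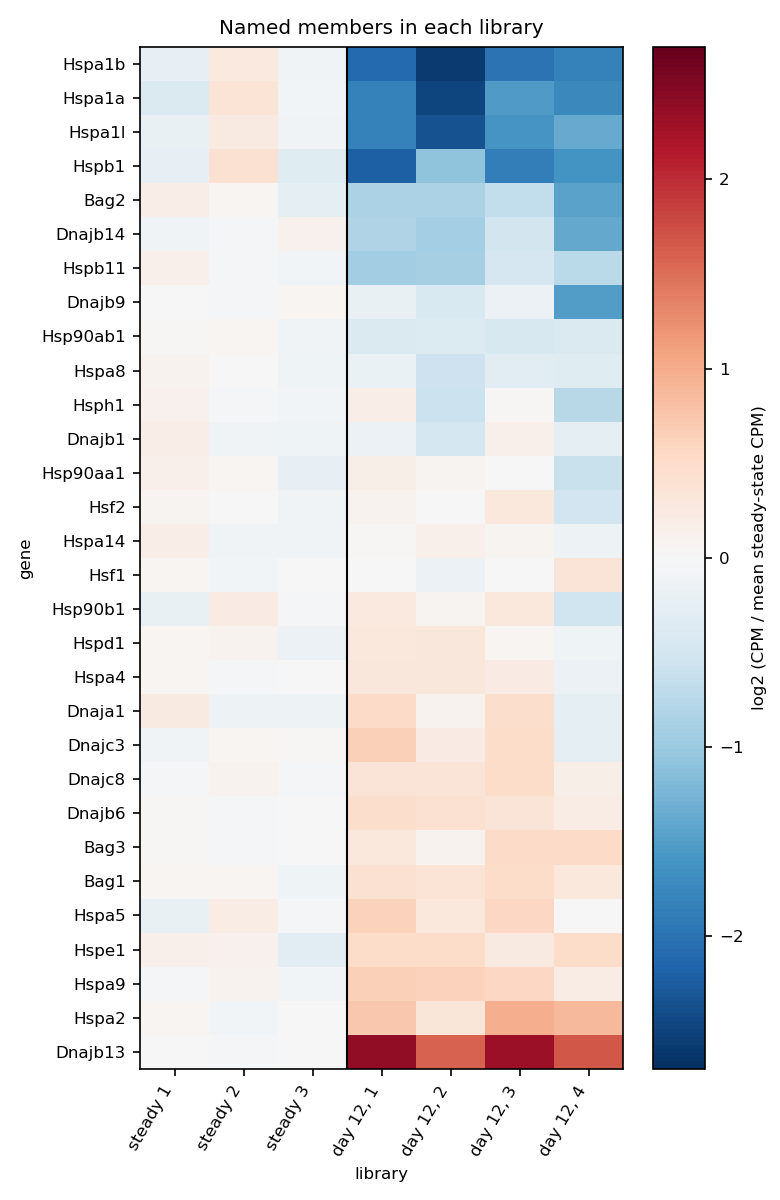
Log2 of CPM over the steady state mean (colour) for the members named with values in every library (rows, ordered by change) in the 7 libraries (columns). Hspa1b, Hspa1a, Hspa1l and Hspb1 are low in all 4 day 12 libraries, and day 12 replicate 4 is below replicates 1 to 3 for Hspa5, Dnajc3 and Dnajb9.

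BAG proteins bind the HSP70 ATPase domain and release its nucleotide. Of the 6 genes, 2 were called, in opposite directions, beside 20.3% of all genes tested. Bag1 (chromosome 4, 40936398 to 40948294), which links HSP70 to the proteasome, stood at 79.5, 79.7 and 70.6 CPM and rose to 101, 98.5, 108 and 93.1 CPM (log2 change 0.39, SE 0.10, edgeR adjusted p = 0.0232). Bag2 (chromosome 1, 33784565 to 33796876), an inhibitor of the ubiquitin ligase CHIP, stood at 1.69, 1.54 and 1.25 CPM and fell to 0.82, 0.83, 0.95 and 0.55 CPM (log2 change -0.92, SE 0.28, edgeR adjusted p = 0.0441). Neither pair of groups overlapped, and both calls were lost when any control library was left out (edgeR adjusted p up to 0.130 for Bag1 and up to 0.176 for Bag2). The Bag1 call was also lost without day 12 replicate 1 or 3, and that of Bag2 without day 12 replicate 1 or 2. Bag3, the heat-inducible member that guides clients to autophagy, stood at 43.2, 41.2 and 42.8 CPM and then at 51.8, 45.0, 60.3 and 60.9 CPM (log2 change 0.36, SE 0.12, edgeR adjusted p = 0.0687). Bag3 passed as higher with DESeq2 (adjusted p = 0.0425) and without day 12 replicate 2 (edgeR adjusted p = 0.0202). Bag6 was spread widely at day 12, at 152, 152, 158 and 225 CPM against 168, 178 and 165 CPM.

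Neither transcription factor of the system was called by edgeR or DESeq2, and neither had an unadjusted p under 0.05. Hsf1, the main activator of heat shock genes, stood at 38.7, 35.2 and 37.2 CPM and then at 36.5, 33.3, 36.8 and 47.0 CPM (log2 change 0.05, SE 0.13, edgeR adjusted p = 0.818). Hsf2 stood at 23.1, 22.0 and 20.7 CPM and then at 23.6, 22.0, 26.6 and 15.4 CPM (edgeR adjusted p = 0.993). Both sets of groups overlapped, and the signs of both genes turned without day 12 replicate 4 (-0.06 and 0.14). RNA level does not report the activity of these factors, which is set largely after translation. A list of 15 members that heat shock raises also holds the constitutive Hspa8 and Hsp90ab1, so it is not made of inducible copies alone. Of the 14 tested, 4 fell by edgeR (28.6% called, beside 20.3% of all genes tested in either direction and 10.2% lower). They were the inducible Hspa1a, Hspa1b and Hspb1 and the constitutive Hsp90ab1. Hspa1a and Hspa1b, which cannot be fully separated, make up 2 of these 4. None rose by edgeR (2 were higher at an unadjusted p under 0.05 and 2 were called higher by DESeq2), and 10 were not called. The median log2 change of the list was -0.16, beside 0.003 over all genes tested. The 10 not called include Hspa8, Hsph1, Dnajb1, Dnaja1, Bag3, Hspd1 and Hspe1, given above.

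Levels between genes were compared as CPM per kilobase of exon, using exon lengths of GENCODE M21. The 8 highest members in steady state were Hsp90ab1 (361 ± 21.2), Hspa5 (298 ± 40.3), Hsp90b1 (264 ± 39.5), Hspa8 (238 ± 18), Hspa1b (71.8 ± 13.3), Dnajb9 (65.6 ± 2.19), Bag1 (56.8 ± 3.81) and Dnajc3 (56.1 ± 3.18). The first 4 lay well above the rest, and among them Hspa5 and Hsp90b1, and Hsp90b1 and Hspa8, differed by less than the larger of their SDs, as did Hspa1b from Dnajb9 and Bag1 from Dnajc3. At day 12 the 4 stood at 275 ± 5.24 for Hsp90ab1, 390.3 ± 73.3 for Hspa5, 275 ± 65.1 for Hsp90b1 and 189 ± 20.2 for Hspa8. Hspa1b, the fifth in steady state, stood at 16.8 ± 3.54 at day 12, below Bag1 (74.3 ± 4.5), Dnajc3 (69.8 ± 17.5) and Dnajb9 (47.1 ± 16.5).

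**Figure D4:**
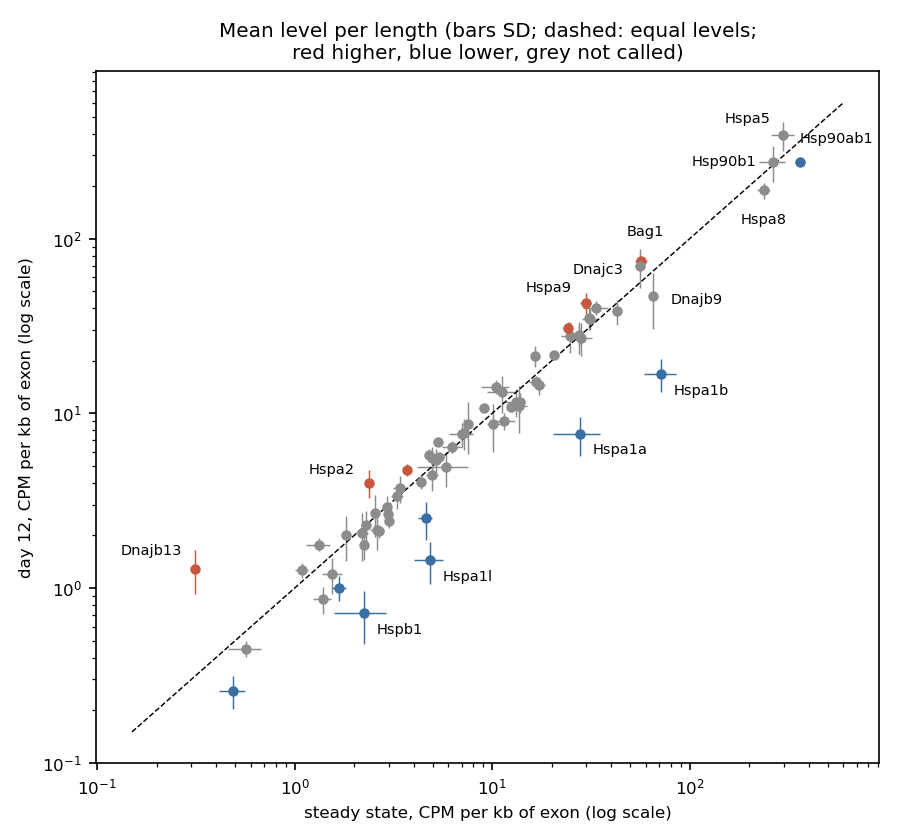
Mean CPM per kilobase of exon in steady state (x, log axis) against day 12 (y, log axis) for members tested, with SD bars over 3 and 4 libraries, called genes in red (higher) or blue (lower) and a dashed line at equal levels. Hsp90ab1 is furthest right at 361 and Hspa5 highest at 390.3, while Hspa1b lies below the line at 71.8 and 16.8.

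Chaperone genes and listed regulators outside the symbol rule were followed as 6 pathway lists, 71 distinct genes tested in all. Of these 2 rose and 5 fell (9.9% called, beside 20.3% of all genes tested). Among 19 co-chaperones of HSP90, 3 fell and none rose by edgeR, by DESeq2 or at an unadjusted p under 0.05 (median log2 change -0.11). They were Fkbp5, an immunophilin of steroid receptor complexes (14.2 ± 3.70 to 7.73 ± 1.32 CPM, log2 change -0.88, edgeR adjusted p = 0.0155), Sugt1, which joins HSP90 to NOD-like receptors (49.8 ± 1.70 to 37.2 ± 4.01 CPM, -0.42, edgeR adjusted p = 0.0256), and Ptges3, the p23 co-chaperone (49.1 ± 3.76 to 37.5 ± 3.66 CPM, -0.39, edgeR adjusted p = 0.0380). None of 8 HSP70 partners was called by edgeR (1 at an unadjusted p under 0.05, 1 by DESeq2, median log2 change 0.07). Of 14 cytosolic chaperonin and prefoldin subunits, Pfdn5 fell from 76.5 ± 5.07 to 59.7 ± 5.6 CPM (log2 change -0.36, edgeR adjusted p = 0.0425) and none rose, by DESeq2 or at an unadjusted p under 0.05 either. Of 9 mitochondrial chaperones and proteases, Afg3l2, a subunit of the inner membrane m-AAA protease, rose from 69.4 ± 1.36 to 94.97 ± 4.54 CPM (log2 change 0.45, edgeR adjusted p = 0.00767). Of 18 endoplasmic reticulum folding enzymes, Ero1a, the oxidase that recharges disulphide isomerases, rose from 34.6 ± 0.324 to 58.7 ± 7.97 CPM (log2 change 0.76, edgeR adjusted p = 0.00269). Of 5 other genes listed as heat shock factors and regulators and tested, Tfeb fell from 25.0 ± 3.39 to 12.3 ± 3.47 CPM (log2 change -1.02, edgeR adjusted p = 0.00742). Tfeb is a transcription factor of lysosome genes and not a heat shock factor.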

How the data were processed

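RNA of sorted Tim4+ peritoneal macrophages was measured in 7 libraries (3 steady state, 4 day 12), grouped by the sample titles. Per the labels' protocols, poly-A RNA went into directional libraries read as single ends. The authors deposited raw counts per gene, not normalised, in a single table. Per the submitters' processing notes, the tools were STAR 2.7.11a, featureCounts of Subread 2.0.6, FastQC, SAMtools 1.10 and DESeq2 1.40.2, and the build was GRCm39. The annotation release, strand setting and handling of multi-mapping reads were not given in the sources used here.

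From the counts, edgeR 4.0.16 in R 4.3.3 gave TMM factors, a filter (filterByExpr, minimum count 10, minimum total 15) and a quasi-likelihood F test with Benjamini-Hochberg adjustment over all 15981 genes tested, called at 0.05. SE is the absolute log2 fold change over the square root of F. The script was tested on simulated data. Within each group no 2 libraries agreed within sampling noise. The median log2 fold change of all genes was 0.003, and DESeq2 size factors moved it by 0.0113. Exon lengths are unions of GENCODE M21 exons (GRCm38), used for lengths only, and promoters are RefSeq GRCm38.p6.

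Values in every library are given for members called and for 22 listed members. Of each pathway list, genes called among the 3 with the lowest p are named. Alternatives were DESeq2 size factors, DESeq2 1.42.0, limma-voom (limma 3.58.1), no filter, a filter of 1 CPM in 3 libraries, each library left out, and a replicate block. Members and lists were chosen with earlier results of these data known. The values of 1 member, counted with the others, are not reported here.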

Additional observations from a re-analysis of the deposited data

Results flagged for a closer look

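Among 69 of the members tested, 5 had a day 12 library whose gap to its nearest neighbour exceeded Dixon's limit for 4 samples. Chance flags about 1 in 20 groups. Day 12 replicate 4 was the library that stood apart in 4 of the 5. It was highest for Bag6, at 224.7 CPM against 151.7 to 157.6 CPM in the others. It was lowest for Dnajc13 (111.1 CPM, others 145.7 to 148.8), an endosomal J protein, and for Dnajc21 (7.604 CPM, others 14.15 to 15.02), which acts in ribosome assembly. Dnajc25 (11.55 CPM, others 16.47 to 16.79) was also lowest there. Hspe1 was lowest in day 12 replicate 3, at 18.20 CPM against 21.77 to 21.94 CPM.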

How the results depend on the processing

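Hspa1b, Hspa1l, Hspb1, Dnajb13 and Dnajb14 kept their direction and their call under all 13 alternatives, and Hspa1a under 12. Hspa2 and Hspa9 kept theirs under 10, Bag1 and Dnajb6 under 7, Hsp90ab1, Hspb11 and Bag2 under 6, and Dnajc8 under 5. Leaving out each library in turn gave 1 to 14 members higher, 5 to 13 lower, and 1761 to 4599 genes called in all. The share called ran from 8.57% to 38.6% of members and from 10.7% to 29.2% of all genes tested. Members called higher numbered 6 with all libraries, 11 with DESeq2 and 3 with no filter on low counts. Members called lower numbered 8 with all libraries, 11 with DESeq2 and 5 with no filter. The background moved too: DESeq2 called 31.4% of members and 25.4% of all genes tested. With no filter these shares were 10.4% and 11.6%. Small changes turned sign, none of them called. Hsf2 (-0.0028 with all libraries) was 0.00970 with DESeq2 size factors and with DESeq2, 0.032 with the 1 CPM filter, and -0.11 to 0.14 with a library left out. With a library left out, Hsf1 ranged from -0.057 to 0.15, Hsp90aa1 from -0.17 to 0.076, Hsp90b1 from -0.020 to 0.22 and Hspa14 from -0.015 to 0.15. The cause was not tested.

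Replicate numbers 1 to 3 occur in both groups, and nothing in the labels ties them. Deviations of same-numbered libraries correlated at -0.141, 0.00775 and 0.203. With so few libraries this check cannot tell whether they were paired. With the replicate number as a block and day 12 replicate 4 left out, 14 members were higher and 11 lower. Without the block the same 6 libraries gave 14 and 13. The share called was 35.7% of members and 27% of all genes tested with the block, and 38.6% and 29.2% without it. The block added calls for Dnaja1 (edgeR adjusted p = 0.0351), Hspd1 (0.0413), Hspe1 (0.0160), Dnajb9 (0.0435) and Hspa8 (0.0488) to those of the 6 libraries. Calls lost with the block were those of Hspa1a (edgeR adjusted p = 0.0524), Hspa5 (0.0545), Hspb11 (0.0560), Dnajc16 (0.0672), Dnajc24 (0.0721), Dnajc15 (0.0802) and Bag2 (0.0952). Dnaja3 passed in both (0.0471 with the block). In the blocked fit Hsf1 was -0.058, Hsf2 0.13 and Hsp90aa1 0.083. Not every library correlated best with its own number. Members under 0.21 CPM could not be tested, and at 3 against 4 libraries small changes may be missed.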

Other observations

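Dnajc9, a J protein that handles histones, was singled out after its values were seen. It stood at 17.9, 13.9 and 9.90 CPM in steady state and at 8.61, 14.6, 10.6 and 13.0 CPM at day 12. The summed CPM of 10 cell cycle genes in the same libraries was 547, 309 and 177, and then 84.9, 287, 88.6 and 222. Within each group the libraries stood in the same order by both measures, and neither Dnajc9 nor any of the 10 genes was called by edgeR or DESeq2 or had an unadjusted p under 0.05.

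The table also lists 15 pseudogenes whose names match the symbol rule but which are no members. The most abundant, Hspd1-ps3, stood at 32.99 to 39.7 CPM in steady state and 26.4 to 44.8 CPM at day 12, beside 74.8 to 88.7 and 76.7 to 103 CPM for Hspd1. Dnajb6-ps stood at 7.39 to 8.02 and 8.24 to 10.4 CPM, beside 21.5 to 23.0 and 25.8 to 31.2 CPM for Dnajb6. How reads shared with these copies were assigned is not stated in the sources at hand.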
